A study of Mus musculus with 16 samples.

Results

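The ATP-binding cassette (ABC) transporters are a family of proteins that use ATP to move lipids, sterols, drugs, metabolites and peptides across membranes. Members were taken as every gene whose symbol reads Abc, a subfamily letter from a to g, a number and at most a final a or b. This rule found 50 genes, among 38926 gene names in the tables of the mpEC, bmEC and Lats2 libraries and among 21603 gene identifiers in the Yap1/Taz lists. All 50 were listed in each of the 3 data sets.

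Endothelial cells (ECs) were sorted from the long bones of 3-week-old C57BL/6 mice, and RNA from 16 libraries was sequenced. The first comparison set 3 libraries of ECs from the metaphysis (mpECs), the bone below the growth plate, against 3 libraries of ECs from the marrow cavity of the diaphysis (bmECs). Both came from mice with the Cdh5-mT/nG reporter, which marks ECs by a red membrane and a green nuclear protein, and their genotype is labelled as wildtype. The second set 3 ECKO libraries from Yap1flx/flx, Wwtr1flx/flx mice that carried Cdh5CreERT2, named Yap1/Taz iΔEC, against 3 libraries from Cre-negative mice with the same floxed alleles, all at postnatal day 21, and the third set 2 Lats2 cKO libraries (Lats2flx/flx with Cdh5CreERT2, named Lats2 iΔEC) against 2 Lats2 Cont libraries without Cre. Cdh5CreERT2 is a Cre recombinase driven by the endothelial Cdh5 promoter and switched on by tamoxifen, which pups received, and controls were littermates. Yap1 and Taz (the product of Wwtr1) are transcriptional co-activators of the Hippo pathway, and the kinase Lats2 restrains them. The number of animals behind a library is not given in the sources used here, so p-values measure the spread between these libraries, part of which may be technical.

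ABC proteins couple the binding and splitting of ATP to a change in shape that carries a substrate across the membrane. In vessels they are best known from the blood-brain barrier, where Abcb1a and Abcg2 return drugs to the blood, and from cholesterol traffic, where Abca1 and Abcg1 hand sterols to lipoproteins. Not every member transports: the sulfonylurea receptor Abcc9 is the regulatory subunit of a potassium channel closed by ATP, and members of subfamilies E and F are soluble proteins of translation.

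The deposited values are FPKM, fragments per kilobase of gene length scaled to library size, so levels can be set side by side between genes of a data set. Reads recovered from the steps of the FPKM values numbered 11122417 to 14756144 in the mpEC and bmEC libraries, 4889945 to 7162965 in the Yap1/Taz libraries and 4732694 to 7074017 in the Lats2 libraries. All 10 endothelial markers examined, among them Cdh5 and Pecam1, were above 0 in every library, with summed levels from 562 FPKM in a Yap1/Taz control to 3229.8 FPKM in a Lats2 control. Markers of red cells, neutrophils and B cells were above 0 as well, and Hbb-bs, a beta globin, was the most abundant gene of all mpEC and bmEC libraries. In every Lats2 library it was Gm23935, at 6093 and 7629 FPKM in controls and 15846 and 26667 FPKM in Lats2 iΔEC. The FPKM of all genes summed to 342284 and 341172 in these controls and to 382473 and 444999 in Lats2 iΔEC. The main fit applied no further scaling, and quantile scaling was run as an alternative. In the libraries labelled Yap1/Taz iΔEC neither targeted gene was called lower, and Wwtr1 went against the label. Wwtr1 stood at 10.01, 9.88 and 10.3 FPKM in controls and at 15.3, 19.6 and 19.5 FPKM in the libraries labelled Yap1/Taz iΔEC, a log2 difference of 0.78 with an SE of 0.12 (limma adjusted p = 0.0272), a call kept in 2 of the 6 fits that left out a library. Yap1 stood at 1.07, 1.62 and 0.99 FPKM against 1.43, 1.03 and 0.99 FPKM (log2 difference -0.04, SE 0.18). Its interval, from -0.45 to 0.36, did not exclude a change either way. According to the authors, quantitative PCR on freshly isolated bone ECs of these mutants found both transcripts reduced. Lats2 was 23.4 and 24.0 FPKM in its controls and 19.2 and 19.2 FPKM in Lats2 iΔEC, which did not pass the test (log2 difference -0.29, SE 0.11, limma adjusted p = 0.125). The authors report reduced Lats2 transcript in freshly isolated bone ECs of these mutants. Cyr61 and Ctgf, which the paper counts among genes controlled by Yap1 and Taz, were higher in Lats2 iΔEC. Their log2 differences were 3.50 and 2.61 (limma adjusted p = 0.00808 and 0.0113).

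The promoters of the members on which the results turn are shown first, as the 250 bases before the annotated start, read 5′ to 3′ on the strand of the gene from RefSeq (GRCm38.p6). Windows were found for 38 of the 50 members. Capitals mark every match, on either strand, to the TEAD core CATTCC, the element through which Yap1 and Taz partners bind DNA, to the hypoxia response core ACGTG, to the CCAAT box and to the GC box GGGCGG. The windows are Abcc9 at chr6:142702275-142702524 on the minus strand, Abcg2 at chr6:58640296-58640545 on the plus strand and at the last of its 3 listed starts, Abcb1b at chr5:8797897-8798146 and Abcb1a at chr5:8566841-8567090, both on the plus strand, and Abca1 at chr4:53159896-53160145 on the minus strand.
Abcc9: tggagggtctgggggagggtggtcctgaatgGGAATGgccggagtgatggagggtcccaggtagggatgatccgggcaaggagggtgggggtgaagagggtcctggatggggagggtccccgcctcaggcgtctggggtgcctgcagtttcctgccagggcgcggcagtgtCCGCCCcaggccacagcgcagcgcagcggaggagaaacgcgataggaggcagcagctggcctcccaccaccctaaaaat
Abcg2: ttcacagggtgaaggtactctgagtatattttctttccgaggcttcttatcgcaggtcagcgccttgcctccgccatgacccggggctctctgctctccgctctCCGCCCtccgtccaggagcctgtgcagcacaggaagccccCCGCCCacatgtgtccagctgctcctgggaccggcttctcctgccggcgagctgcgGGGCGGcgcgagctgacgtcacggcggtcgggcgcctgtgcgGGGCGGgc
Abcb1b: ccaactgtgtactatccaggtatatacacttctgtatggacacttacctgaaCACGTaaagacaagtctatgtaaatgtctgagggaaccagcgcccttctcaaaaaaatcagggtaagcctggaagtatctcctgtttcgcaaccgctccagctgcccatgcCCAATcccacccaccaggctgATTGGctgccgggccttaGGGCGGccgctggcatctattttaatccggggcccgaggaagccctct
Abcb1a: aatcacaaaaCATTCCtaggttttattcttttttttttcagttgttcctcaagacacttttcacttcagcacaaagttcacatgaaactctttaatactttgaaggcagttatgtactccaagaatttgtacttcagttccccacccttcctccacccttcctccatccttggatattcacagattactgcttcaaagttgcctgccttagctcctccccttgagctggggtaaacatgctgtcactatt
Abca1: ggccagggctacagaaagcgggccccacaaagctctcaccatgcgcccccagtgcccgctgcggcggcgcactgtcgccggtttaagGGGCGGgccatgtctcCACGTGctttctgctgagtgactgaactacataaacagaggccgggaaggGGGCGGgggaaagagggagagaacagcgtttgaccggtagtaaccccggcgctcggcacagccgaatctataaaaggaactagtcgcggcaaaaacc

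The TEAD core lay in the windows of Abcc9, 219 to 214 bases before the start, and of Abcb1a, 240 to 235 bases before it. Among all 32851 windows of the genome 12.6% held it, and 8 of the 45 windows of members did. The hypoxia core, present in 16.6% of all windows, was in Abcb1b once and in Abca1 on both strands, where the matches CACGT and ACGTG overlap in CACGTG. GC boxes were in 32.7% of all windows, with 4 in Abcg2, 2 in Abca1 and 1 each in Abcc9 and Abcb1b, and the CCAAT box, in 33.8% of all windows, was in Abcb1b on each strand. The annotations place some starts differently: GENCODE starts Abcb1a at 8660077 and Abcg2 at 58584523, far from the RefSeq windows shown, and the Abcc9 gene at 142702315, inside its window. A match describes letters in the window and says nothing of binding.

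Members differed widely in level. A gene was tested where its mean over the libraries of a comparison reached 1 FPKM, which 26 members did in the mpEC and bmEC libraries, 29 in the Yap1/Taz libraries and 23 in the Lats2 libraries. Tested in all 3 comparisons were 22 members and in none 20. Abca15, Abcb5, Abcb11 (the bile salt export pump), Abcc6 and Abcg8 (a partner in intestinal and biliary sterol export) were listed at 0 in all 16 libraries, and the highest mean of an untested member was 0.989 FPKM. In the mpEC and bmEC libraries the 5 most abundant members were Abcg2, Abcc9, Abcg1, Abcf2 and Abce1. The same 5 genes led in the Lats2 libraries, and in the Yap1/Taz libraries Abca1 took the place of Abcg2. The highest means were 171 FPKM for Abcc9 and 137 FPKM for Abcg2, both in bmECs. Because each data set was normalized on its own, levels were not tested across data sets.

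**Figure D1:**
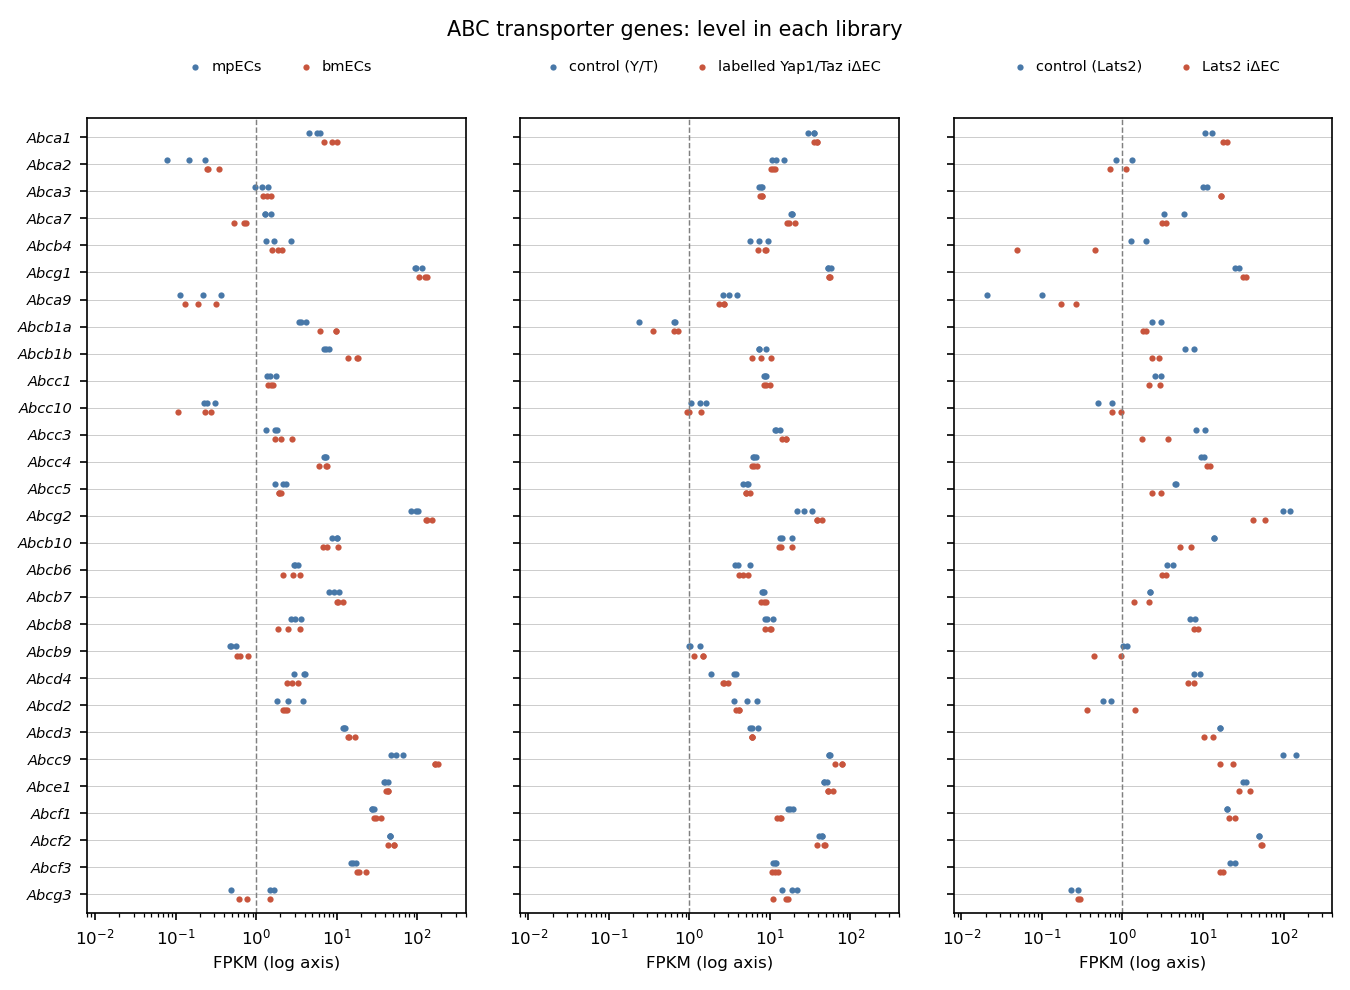
Level of the ABC transporter genes reported here that were tested in at least 1 comparison, as FPKM on a log axis with 1 point per library, for mpECs and bmECs (3 libraries each), the Yap1/Taz libraries (3 each) and the Lats2 libraries (2 each). The dashed line is the 1 FPKM mean needed for a test, and Abcc9, Abcg1 and Abcg2 lie furthest to the right with Abce1 and Abcf2.

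Between the metaphysis and the marrow cavity, the comparison that asks how ECs of the bone regions differ, 6 members passed the test. Abcc9, Abcb1a, Abcb1b, Abcg2 and Abca1 were higher in bmECs and Abca7 was lower. With 6 of 26 tested members (23.1%) the family stood beside 23.5% of all 11422 genes tested, and the median log2 difference of its tested members was 0.068, beside -0.00068 for all genes. Of all genes 13% were called higher and 10.5% lower, beside 5 members and 1 member. Groups did not overlap for 10 members, where 41.3% of all tested genes had groups that did not overlap. At the stricter rule of an adjusted p under 0.01 and a log2 difference over 0.5 in size, 4 members passed, beside 11.7% of all genes, and at an unadjusted p under 0.05 it was 9 members, beside 36.1%. Summed over the 50 members, the group means came to 467 FPKM in mpECs and 672 FPKM in bmECs. In these bulk libraries fewer cells of a type and less RNA per cell cannot be told apart.

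Abcc9, the sulfonylurea receptor SUR2, showed the largest log2 difference of any tested member. It stood at 47.1, 66.3 and 54.4 FPKM in mpECs and at 167, 166 and 179 FPKM in bmECs. Every bmEC library was far above every mpEC library. The log2 difference, taken here and below on log2(FPKM + 1), which understates the change of low genes, was 1.60 with an SE of 0.12 (limma adjusted p = 0.000113), and it passed the test in 13 of 13 alternative analyses. Kcnj8, which encodes the channel pore that pairs with SUR2 and lies beside Abcc9 on chromosome 6, moved likewise, from 131, 199 and 169 FPKM to 465, 458 and 439.6 FPKM (log2 difference 1.46, SE 0.14, limma adjusted p = 0.000315). The other pore gene, Kcnj11, was listed at 0 in these 6 libraries, and Abcc8, the other sulfonylurea receptor, reached at most 0.0416 FPKM. Abcc9 and Kcnj8 are known from pericytes also, so markers of these cells were read beside them. Pdgfrb averaged 0.119 FPKM in mpECs and 0.117 FPKM in bmECs, Cspg4 did not exceed 0.0623 FPKM, and Rgs5 averaged 18.2 FPKM in mpECs and 9.37 FPKM in bmECs (limma adjusted p = 0.176). The sum of the 10 stromal, pericyte and fibroblast markers was 66.0 to 109 FPKM in mpECs and 35.2 to 82.7 FPKM in bmECs. Of the 6 of these markers that were tested, Lepr, known from marrow stromal cells, was higher in bmECs (log2 difference 1.85, limma adjusted p = 5.1e-05), Lum was lower (-3.25), and the other 4 did not pass. The part of such cells in the values of Abcc9 and Kcnj8 was not tested.

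Among the multidrug and organic anion pumps 3 of 7 tested members passed the test, all higher in bmECs. Of all genes tested 23.5% were called, and 13% were called higher. Abcb1b, a P-glycoprotein that expels hydrophobic drugs, was measured at 7.43, 8.03 and 6.95 FPKM in mpECs and at 18.3, 17.6 and 13.6 FPKM in bmECs. Its groups were well apart, with a log2 difference of 1.04 and an SE of 0.13 (limma adjusted p = 0.0009). Abcb1a, the P-glycoprotein of brain capillaries, rose from 3.65, 4.13 and 3.40 FPKM to 9.93, 9.92 and 6.14 FPKM, with 1 bmEC library clearly below the others but above all mpECs (log2 difference 1.01, SE 0.18, limma adjusted p = 0.00527). These neighbouring genes are close copies. Of the 50-base stretches of its longest transcript Abcb1a shares 15.5% with Abcb1b, and Abcb1b shares 18.0% with Abcb1a, so part of their reads cannot be assigned with certainty. Abcg2, the breast cancer resistance protein, which exports drugs and porphyrins, stood at 84.1, 102 and 96.2 FPKM in mpECs and at 133, 151 and 127 FPKM in bmECs. It was already abundant in the metaphysis and the groups did not overlap (log2 difference 0.54, SE 0.10, limma adjusted p = 0.0077). Abcb1a, Abcb1b and Abcg2 each passed in 13 of 13 alternatives. The other tested pumps, Abcc1, Abcc3, Abcc4 and Abcc5, lay between -0.06 and 0.26 on the log2 scale and did not pass.

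**Figure D2:**
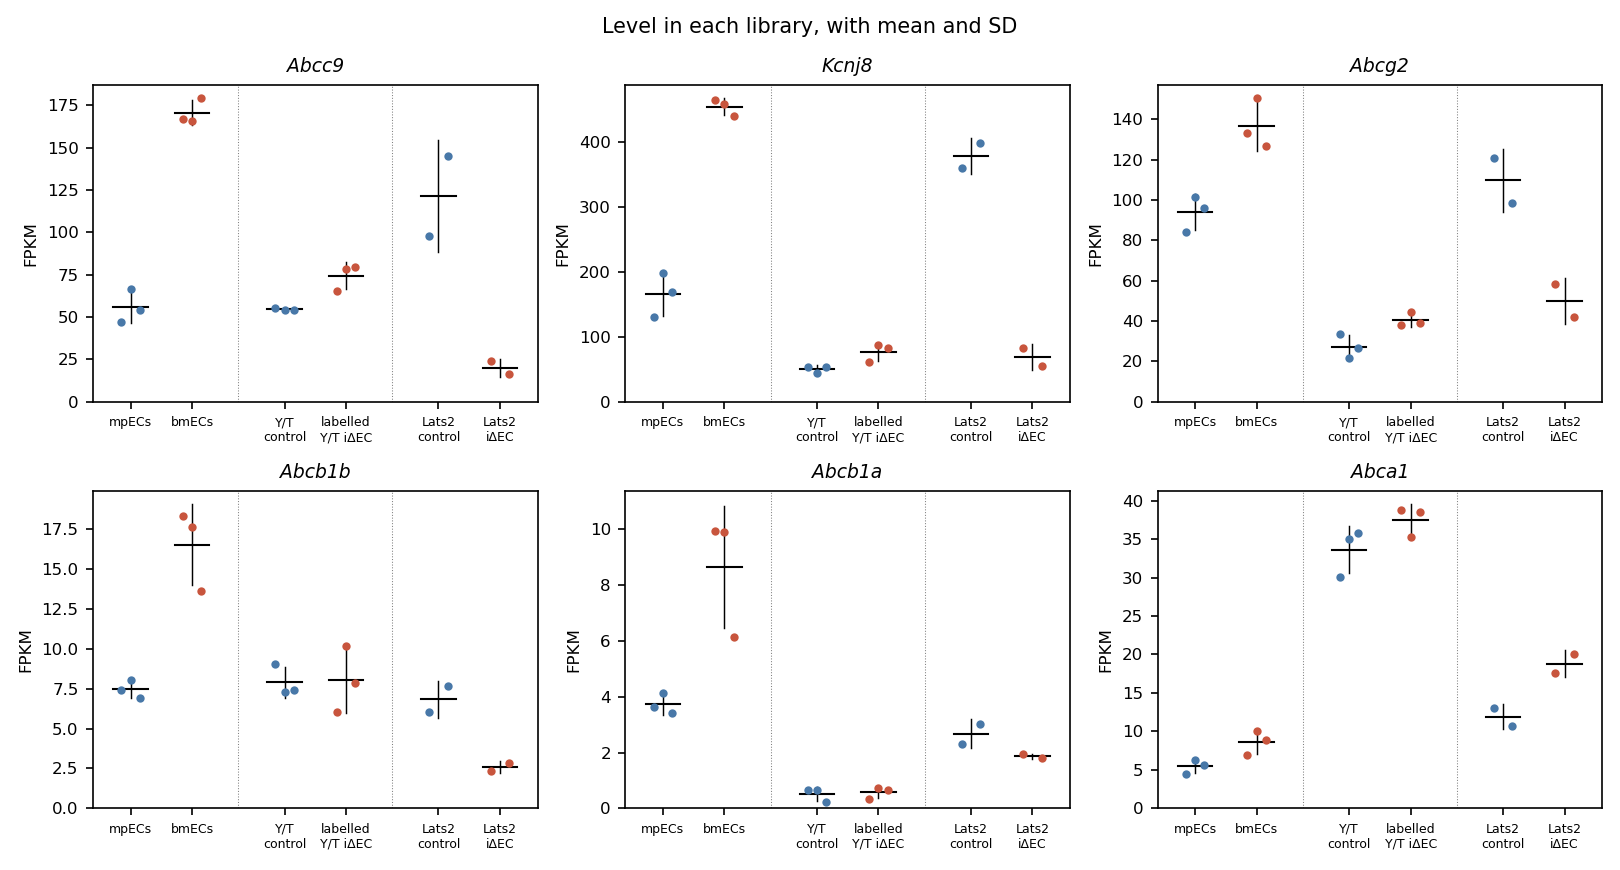
Level of Abcc9, its channel partner Kcnj8, Abcg2, Abcb1b, Abcb1a and Abca1 in each of the 16 libraries, in FPKM on linear axes that start at 0, with the mean (bar) and SD (line) of each group. Abcc9, Kcnj8, Abcg2 and Abcb1b were higher in bmECs than in mpECs and lower in Lats2 iΔEC than in control, while Abca1 was higher in both.

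Of the sterol and phospholipid exporters 5 of 12 were tested. Abca1, which loads cholesterol and phospholipid onto apolipoprotein A1, was measured at 4.50, 6.28 and 5.61 FPKM in mpECs and 6.91, 10.1 and 8.82 FPKM in bmECs. The lowest bmEC library was just above the highest mpEC library, and the log2 difference was 0.57 with an SE of 0.16 (limma adjusted p = 0.0355). This call did not hold without mpEC replicate 1 (adjusted p = 0.0908) or 3 (0.0852) or without bmEC replicate 2 (0.111) or 3 (0.0925). It was also lost with no filter on low values and by limma-voom on the recovered reads (adjusted p = 0.0783). Thus 7 of 13 alternatives kept it, and over all of them the limma adjusted p ran from 0.00672 to 0.111. Abca7, an exporter of phospholipids related to Abca1, was the member that was lower, with 1.27, 1.54 and 1.28 FPKM in mpECs and 0.70, 0.53 and 0.75 FPKM in bmECs (log2 difference -0.51, SE 0.14, limma adjusted p = 0.0323). Its mean over the 6 libraries was 1.01 FPKM, so it was tested only through its level in mpECs, and each left-out bmEC library ended the call, with limma adjusted p from 0.0526 to 0.1, while without any of the mpEC libraries its mean fell under the filter and it was not tested. Abcg1, which passes sterols to high-density lipoprotein, was the most abundant exporter at 97.5, 114 and 94.5 FPKM against 125, 132 and 107 FPKM. Its groups overlapped, and the interval of its log2 difference ran from -0.01 to 0.50 (limma adjusted p = 0.159). Abca3 and Abcb4 did not pass either.

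The housekeeping branches of the family showed no call between the regions. None of the 5 tested members of mitochondria and lysosomes passed, nor did Abcd2 or Abcd3, peroxisomal members that import fatty acids for beta-oxidation. The soluble ATPases were abundant, and their groups overlapped or lay close. All 4 had a positive log2 difference, from 0.07 to 0.29, and none passed. The groups of 2 of them did not overlap, beside 41.3% of all tested genes. Abcf2, a protein linked to translation, was at 45.8, 45.9 and 46.1 FPKM in mpECs and 50.7, 43.1 and 51.3 FPKM in bmECs, and Abce1, which recycles ribosomes, was at 43.8, 38.6 and 39.5 against 43.7, 43.1 and 40.9 FPKM. The intervals of their log2 differences were -0.14 to 0.27 and -0.12 to 0.26.

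Partners of these transporters were read from lists of known genes. Of 20 tested genes of liver X receptor (LXR) signalling and cholesterol efflux, 5 were higher in bmECs and 4 lower, with a median log2 difference of 0.19. Higher were Apoe (log2 difference 1.76), an acceptor of cellular cholesterol, Mylip (1.91), a ubiquitin ligase, Lpl (1.99), Lpcat3 (0.52) and Nr1h3 itself (1.37), which encodes LXR alpha. Lipa, Scd2 and Soat1 were among those lower, by log2 differences from -1.24 to -0.41. Of 16 genes known from the blood-brain barrier, 9 lay under the filter, at means of at most 0.16 FPKM, and 5 of these were at 0 in every mpEC and bmEC library. Of the 7 tested, 5 were higher, among them the solute carriers Slco2b1 (2.00) and Slc16a1 (1.63), and 1, Lef1, was lower (-0.61). Of 21 tested peroxisomal genes 7 were higher and none lower, led by Pex11a (2.14), a protein of peroxisome division. Tap2, an ABC subunit of the antigen peptide transporter whose symbol falls outside the rule, was higher by 0.84 (limma adjusted p = 0.0106). Cell type markers moved between the regions too. The summed level of 8 osteoblast markers was 235 to 926 FPKM in mpECs and 44.7 to 59.8 FPKM in bmECs, that of 6 chondrocyte markers was 19.0 to 22.9 against 0.0116 to 0.252 FPKM with Col2a1 at 0 in bmECs, and that of 10 endothelial markers was 1630.2 to 2037 against 2122 to 2203 FPKM, with 3 of the 10 called higher and 4 lower. Erythroid markers summed to 28361 to 52993 FPKM in mpECs and 42654 to 60541 FPKM in bmECs, which overlap. Macrophage and monocyte markers summed to 1142 to 2092 against 790 to 1103 FPKM, without overlap, with 1 of 8 tested called higher and 1 lower. Of the neutrophil markers 10 of 10 had a negative log2 difference and 1 was called lower. Of the B cell markers 7 of 8 were negative and 1 was called lower. The part of these shifts in the results on the members was not tested.

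Between the libraries labelled Yap1/Taz iΔEC and their controls, the comparison meant to ask what endothelial loss of Yap1 and Taz changes, none of the 29 tested members passed limma's test at an adjusted p under 0.05. Of all 11320 genes tested 1.31% passed, 0.883% higher and 0.424% lower, and 0.00883% at the stricter rule. At an unadjusted p under 0.05 the count was 4 members, beside 17.9% of all genes, and limma-voom on the recovered reads called 3 members, Abcc9 and Abcg2 higher and Abcf1 lower, beside 357 of all genes. Groups did not overlap for 5 members, beside 23.6% of all genes. The median log2 difference of the tested members was 0.0097, beside -0.0047 for all genes. Every direction here is that of libraries in which Wwtr1 was higher and not lower than in controls.

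Abcc9, Abcf1 and Abcg2 came nearest to a call. Abcc9 stood at 55.6, 54.0 and 54.1 FPKM in controls and at 65.1, 78.6 and 79.6 FPKM in the libraries labelled Yap1/Taz iΔEC. The groups did not overlap, with a log2 difference of 0.44, an SE of 0.10 and a limma adjusted p of 0.0671. Without the first library labelled Yap1/Taz iΔEC the adjusted p was 0.0227, and over all alternatives it ran from 0.0227 to 0.28. Kcnj8 was 54.3, 44.6 and 54.1 FPKM in controls and 61.3, 86.9 and 82.3 FPKM in the others (log2 difference 0.57, SE 0.14, limma adjusted p = 0.0775). The pericyte marker Rgs5 averaged 1.27 FPKM in controls and 2.88 FPKM in the others (limma adjusted p = 0.0642), and the sum of the stromal markers was 20.7 to 21.2 against 17.3 to 23.0 FPKM. Abcg2 stood at 33.4, 21.9 and 26.8 FPKM against 38.3, 44.7 and 39.0 FPKM, a log2 difference of 0.57 with an SE of 0.14 and a limma adjusted p of 0.0787. Without the first control library the adjusted p for Abcg2 was 0.0416, within a range of 0.0397 to 0.3 over all alternatives. Abcf1, a protein of translation initiation, was 17.0, 19.3 and 17.6 FPKM in controls and 13.4, 12.4 and 13.9 FPKM in the libraries labelled Yap1/Taz iΔEC (log2 difference -0.41, SE 0.10, limma adjusted p = 0.0745). It is named because voom called it, after its values were seen.

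The summed level of the 10 endothelial markers moved with Abcc9 and Abcg2, from 562 to 609 FPKM in controls to 732 to 859 FPKM in the libraries labelled Yap1/Taz iΔEC. Of these markers 10 of 10 had a positive log2 difference and 1, Cldn5, passed the test. The sum of the 8 B cell markers was 286 to 338 FPKM in controls and 238 to 242 FPKM in the others, with 0 of 8 called. That of the 8 osteoblast markers was 33.2 to 45.9 against 11.1 to 24.7 FPKM, with 3 of 6 tested called lower. Of 7 tested megakaryocyte and platelet markers 1 was called higher (log2 difference 1.27). The part of these shifts in the values of Abcc9 and Abcg2 was not tested. Among the exporters Abca1 was measured at 30.1, 35.0 and 35.8 against 38.7, 35.3 and 38.6 FPKM and Abcg1 at 53.2, 53.1 and 57.1 against 54.2, 54.6 and 56.3 FPKM. Neither passed, and the interval of the log2 difference was -0.07 to 0.38 for Abca1 and -0.18 to 0.21 for Abcg1. Abcb1b was at 9.02, 7.29 and 7.40 against 6.06, 10.2 and 7.86 FPKM, and its interval, from -0.37 to 0.38, did not exclude a sizeable change either way. Abcb1a, well detected in the other data sets, lay between 0.236 and 0.718 FPKM in all 6 libraries and was not tested. No gene of the lists for LXR signalling, peroxisomes or heme synthesis passed, and of 7 tested blood-brain barrier genes 1 passed, Cldn5, with means of 84.4 and 180.1 FPKM.

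**Figure D3:**
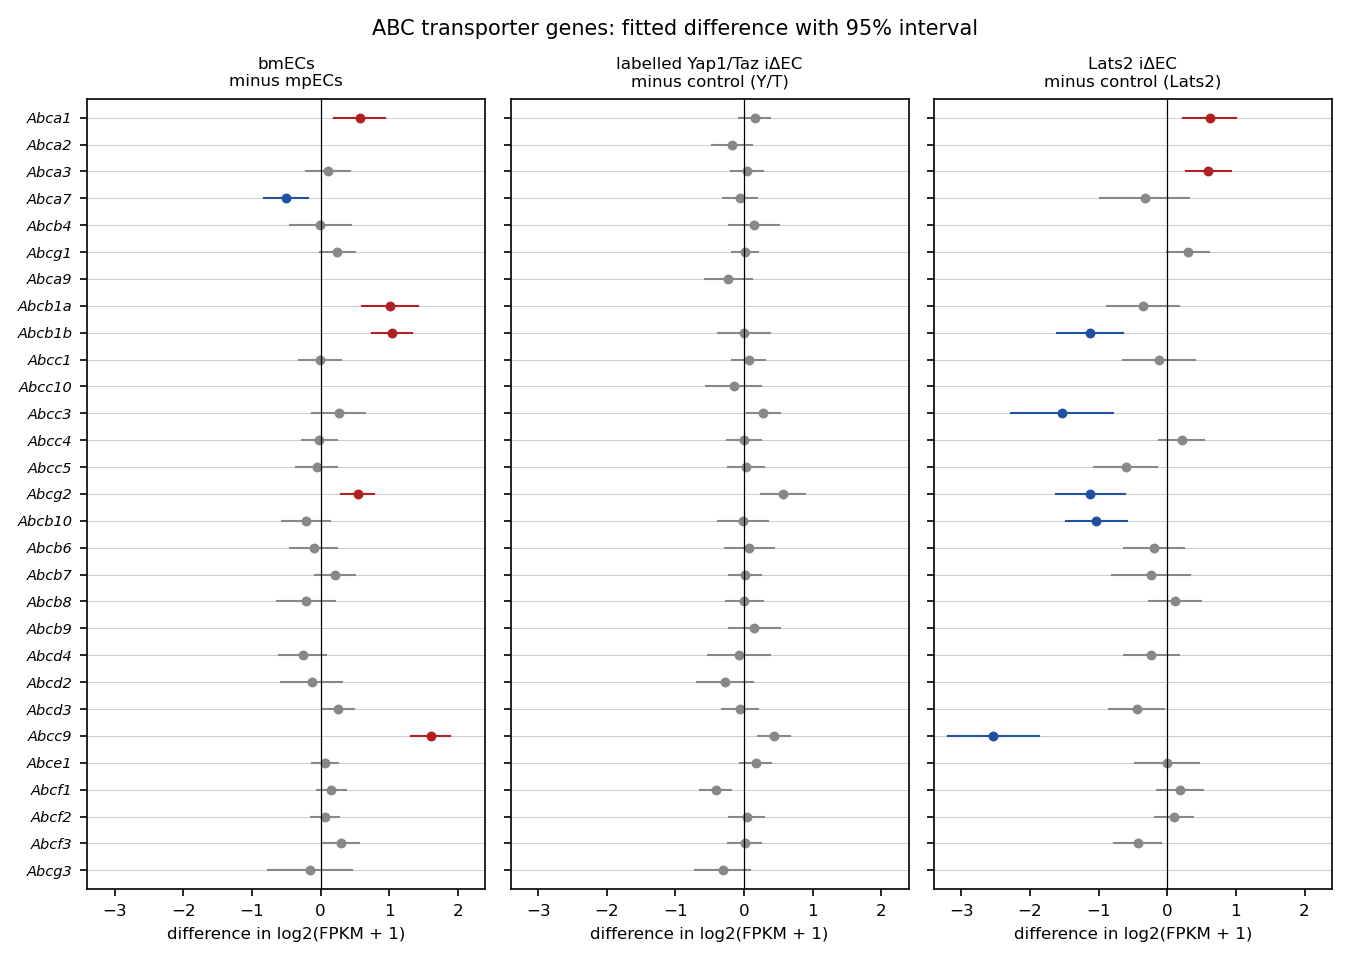
Fitted difference of the tested ABC transporter genes reported here on the log2(FPKM + 1) scale, with its 95% interval, for bmECs minus mpECs, the libraries labelled Yap1/Taz iΔEC minus control, and Lats2 iΔEC minus control. Red and blue mark genes higher and lower at a limma adjusted p under 0.05, and these number 5 and 1, 0 and 0, and 2 and 5.

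Between Lats2 iΔEC and control ECs, the comparison that asks what loss of the kinase changes, 7 of 23 tested members passed the test (30.4%), beside 21.8% of all 12453 genes tested, of which 11.8% were higher and 9.98% lower. Abcc9, Abcc3, Abcg2, Abcb1b and Abcb10 were lower in Lats2 iΔEC, and Abca1 and Abca3 were higher. Groups did not overlap for 18 members, where 68.2% of all genes had groups that did not overlap. The median log2 difference of the tested members was -0.23, beside -0.0033 for all genes. At the stricter rule 1 member passed, Abcc9, beside 2.06% of all genes, and at an unadjusted p under 0.05 it was 10 members, beside 38.6%. Each call rested on both controls. Without Lats2 Cont replicate 1 or 2 no gene at all passed at an adjusted p under 0.05 (0 of 12465 and 0 of 12512, with 2724 and 2879 genes at an unadjusted p under 0.05), and the lone control library was then assumed to vary like the others. Without Lats2 iΔEC replicate 2, where 933 of all genes passed, 1 member did, Abcc9.

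Among the tested members Abcc9 again showed the largest log2 difference, now in the other direction. It stood at 97.8 and 145 FPKM in controls and at 23.9 and 16.2 FPKM in Lats2 iΔEC. The log2 difference was -2.54 with an SE of 0.26 (limma adjusted p = 0.00912), and the adjusted p without a control library was 0.129 or 0.113, within a range of 0.00107 to 0.129 over all alternatives. Kcnj8 fell with it, from 359 and 398 FPKM to 82.6 and 55.4 FPKM (log2 difference -2.47, SE 0.21, limma adjusted p = 0.00758). Of the pericyte, stromal and fibroblast markers 4 of 7 tested were higher and none was lower. Rgs5 was higher (log2 difference 1.53, limma adjusted p = 0.0389), as were Acta2, Col3a1 and Cxcl12, and the sum of the 10 stromal markers was 37.0 to 42.3 FPKM in controls and 68.6 to 85.4 FPKM in Lats2 iΔEC. The part of a changed mix of cells in the values of Abcc9 and Kcnj8 in the Lats2 libraries was not tested.

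Of the pumps, 3 of 7 tested passed, all lower in Lats2 iΔEC, beside 21.8% of all genes called and 9.98% called lower. Abcg2 was 121 and 98.7 FPKM in controls and 58.2 and 42.1 FPKM in Lats2 iΔEC. The lower control lay well above both other libraries, with a log2 difference of -1.13 and an SE of 0.20 (limma adjusted p = 0.0208). Abcb1b was 6.01 and 7.66 FPKM against 2.32 and 2.87 FPKM (log2 difference -1.12, SE 0.19, limma adjusted p = 0.0188), a call lost without any of the 4 libraries (0.0544 to 0.163). Abcb1a was 2.31 and 3.04 FPKM against 1.93 and 1.80 FPKM, which did not pass (log2 difference -0.35, interval -0.87 to 0.17). Abcc3, an exporter of organic anions and conjugated bile salts, fell from 8.18 and 10.5 FPKM to 3.63 and 1.73 FPKM (log2 difference -1.53, SE 0.29, limma adjusted p = 0.0244). Recovered reads behind its values ran from 49 to 357 per library.

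Abcb10, a mitochondrial transporter needed for heme synthesis in red cell precursors, was at 13.5 and 13.5 FPKM in controls and at 7.14 and 5.18 FPKM in Lats2 iΔEC. The controls were alike and both above the mutants, with a log2 difference of -1.03 and an SE of 0.18 (limma adjusted p = 0.019). Of 18 tested genes of mitochondrial iron-sulfur and heme synthesis, 8 were lower and 1 higher in Lats2 iΔEC, with a median log2 difference of -0.49. Among the lower were Slc25a37 (-1.66), the mitochondrial iron importer of red cells, and the pathway enzymes Fech (-1.28) and Cpox (-1.21). Markers of blood cells moved alongside. The summed level of 9 erythroid markers was 2543 to 3784 FPKM in controls and 276 to 1431 FPKM in Lats2 iΔEC, with 3 of 9 called lower. Neutrophil markers summed to 2059 to 3009.8 against 728 to 926 FPKM and B cell markers to 102 to 123 against 29.6 to 38.0 FPKM, with 7 of 10 and 6 of 7 called lower. Abcg2 and Abcb10 are known from red cell precursors as well as from ECs, and the part of these blood cells in their values was not tested.

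The 2 members that rose in Lats2 iΔEC were lipid exporters. Abca1 was 13.1 and 10.7 FPKM in controls and 17.5 and 20.04 FPKM in Lats2 iΔEC, and Abca3, best known for filling the surfactant stores of the lung, was 9.87 and 11.3 FPKM against 16.5 and 16.6 FPKM. In both the groups were apart, with log2 differences of 0.62 (SE 0.15, limma adjusted p = 0.044) and 0.60 (SE 0.13, limma adjusted p = 0.0328). Their calls were also lost without either Lats2 iΔEC library, with limma adjusted p of 0.0698 and 0.143 for Abca1 and 0.0725 and 0.0969 for Abca3. Abcg1, at 25.1 and 27.7 against 31.7 and 33.9 FPKM, did not pass (log2 difference 0.30, interval -0.01 to 0.61). Around these exporters, 5 of 20 tested LXR and cholesterol genes were higher and 5 lower. Apoe (-2.20) and Mylip (-2.34), both higher in bmECs, were lower in Lats2 iΔEC, and Scd2 (0.94) and Lipa (0.88), both lower in bmECs, were higher. Tap1 and Tap2 were both lower, by log2 differences of -0.71 and -0.64.

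Members under the 1 FPKM mean held some of the wider gaps. Abca5, a lysosomal member of the group around Abca6, stood at 0.16 and 0.19 FPKM in Lats2 controls and at 1.37 and 1.21 FPKM in Lats2 iΔEC, and with no filter on low values its limma adjusted p was 0.043 (log2 difference 0.96). Abcb4, which exports phosphatidylcholine, stood at 1.28 and 1.94 FPKM against 0.46 and 0.05 FPKM, the lowest value resting on 2 reads (adjusted p with no filter 0.0792, log2 difference -1.07). Abca2 and Abcb9 were above 1 FPKM on average in controls only, at means of 1.08 and 1.06 FPKM against 0.903 and 0.703 FPKM. In the Yap1/Taz libraries Abcg4 was above 1 FPKM on average only in those labelled Yap1/Taz iΔEC, and in the mpEC and bmEC libraries Abcg3, a rodent relative of Abcg2, was so only in mpECs. The neighbours Abca8a and Abca8b shared under 2% of their 50-base stretches and did not exceed 0.785 FPKM in any library. The members tested in all 3 comparisons and called in none of them by limma on FPKM were 14, among them Abcg1, Abce1, Abcf2, the peroxisomal Abcd3 and the pumps Abcc1, Abcc4 and Abcc5. Of these, limma-voom called Abcc5 (adjusted p = 0.0149), Abcd3 (0.0391) and Abcf3 (0.0364) lower in Lats2 iΔEC.

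Set side by side, the comparison of bone regions and the Lats2 comparison, which share no library, called 4 genes in common, 4 of the 6 called in the first and 4 of the 7 called in the second. Abcc9, Abcg2 and Abcb1b were higher in bmECs and lower in Lats2 iΔEC, and Abca1 was higher in both. Over all 10471 genes tested in both, 972 were called in both, which is 38.4% of the 2529 called in the first and 41.0% of the 2368 called in the second. Of these 972 genes 94.5% had opposite directions. The pattern of Abcc9, Abcg2 and Abcb1b was thus that of most genes called in both, and that of Abca1 was not. Over the 23 members tested in both, 12 had differences of opposite sign and 11 of the same sign. Pearson's r of the log2 differences was -0.55 and Spearman's rho -0.30, beside -0.42 and -0.37 over all genes, a description across genes of the same libraries. Abcc9 had the most extreme value on both axes.

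**Figure D4:**
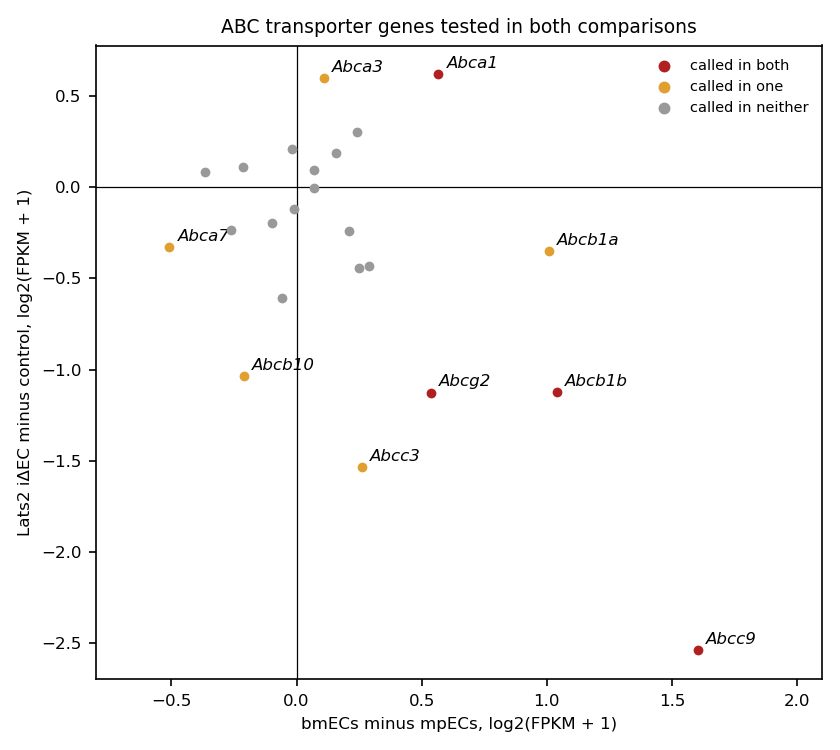
Log2 difference of the 23 ABC transporter genes tested in both comparisons, with bmECs minus mpECs on the x axis and Lats2 iΔEC minus control on the y axis, both in log2(FPKM + 1). Each point is a gene, and the genes called in both are Abcc9, Abcb1b and Abcg2 at the lower right and Abca1 at the upper right.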

How the data were processed

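RNA was sequenced from 16 libraries of sorted bone endothelial cells (3 mpECs, 3 bmECs, 3 Yap1/Taz controls, 3 Yap1/Taz iΔEC, 2 Lats2 controls and 2 Lats2 iΔEC). Libraries were made with a stranded total RNA kit, and according to the authors reads were aligned with TopHat and counted with HTSeq 0.6.1. The deposited values are FPKM per gene, and the program that made them and the strand setting of the counting are not given in the sources used here. The Yap1/Taz lists carry no header, and their unit was inferred. In each of the 16 libraries 62.3% to 70.1% of low values (up to 20 reads) were whole reads, counted as whole within 0.02 reads. Chance gives 4% for a read size fixed beforehand. Here the read size was chosen from the low values themselves to make many of them whole, so its chance share is higher and was not computed. The FPKM scale of these lists is thus an inference. Abca3, Abcb10 and Abcb1a share about 10% of exon bases with genes on the other strand. Abcb6, a tested mitochondrial and lysosomal member, shares 55.2% of its exon bases with Gm29253 on the same strand.

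Groups came from the sample labels. Per comparison, log2(FPKM + 1) was fitted with limma 3.58.1 (R 4.3.3; moderated with a trend, no covariate, two-sided) where the average level reached 1 FPKM or more. P-values were adjusted by Benjamini-Hochberg over all genes tested, with 0.05 as threshold. Intervals are 95%. The scripts were tested on simulated data. Other steps used Python 3.11.15, pandas 2.3.3, numpy 2.4.6 and scipy 1.17.1, and plots used matplotlib 3.10.9. The members and lists were chosen with earlier results of these data known. Some genes are not reported here. Named are members called in any comparison, the 5 most abundant per data set, those past the filter through 1 group, the copies Abcb1a and Abcb1b and Abca8a and Abca8b, and Abcb1a, Abcg2, Abca1, Abcg1 and Abcc9. Alternatives changed the pseudocount (0.1), the filter (none, or 5 FPKM), the scaling (quantile), the trend, the threshold, the test (limma-voom on recovered reads), the replicate block, and left out each library.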

Additional observations from a re-analysis of the deposited data

How the results depend on the processing

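Over 496 values of named genes under alternative settings, 450 stayed on their side of the threshold, 42 lost a call and 4 gained one. Of the 450, 33 changed sign, none of them called. In bmECs against mpECs the count of members called was 4 to 5 with each library left out, and that of all genes, 2682 as reported, 1817 to 2357. In the Yap1/Taz libraries limma-voom called 3 members and leaving out a library gave 0 to 1, and all genes called, 148 as reported, came to 1 without the filter, 17 without the trend, 357 by voom and 1 to 293 with a library left out. The Wwtr1 difference was 0.78 without the filter (adjusted p = 0.0679) and 0.78 without the trend (0.057), and 0.72 to 0.89 with a library left out, where 2 of 6 fits kept the call (adjusted p up to 0.18). In the Lats2 libraries 3 members passed without the filter (1389 genes in all), 1 under the stricter rule, and 0 to 5 with a library left out (0 to 2701 genes). The Lats2 gene passed by voom (-0.44, adjusted p = 0.0435). Voom moved the median of all genes by -0.20 in bmECs and -0.14 in Lats2 iΔEC, and the split of higher and lower genes from 1481 and 1201 to 891 and 2414, from 1468 and 1243 to 1271 and 2039 and, for Yap1/Taz, from 100 and 48 to 205 and 152. Relative to that median Abcc9 differed by 1.62 and -2.60, Abcg2 by 0.54 and -1.14, Abcb1b by 1.13 and -1.38 and Abca1 by 0.67 and 0.67. Voom did not call Abca1 in bmECs (adjusted p = 0.0783). Small differences that were not called changed sign under voom: Abce1 in bmECs, Abcf2 in each comparison, and Abcg1, Abca3 and Abcb1b in the Yap1/Taz libraries. The cause of these changes was not tested. With the replicate number as a block, 5, 0 and 6 members were called (3072, 45 and 2655 genes), which ended the calls of Abca7 in bmECs (adjusted p = 0.0544) and Abca1 in Lats2 iΔEC (0.0601). Whether the numbers pair the libraries was not settled. In mpECs and bmECs same-numbered libraries correlated at 0.307, 0.0876 and 0.102 and other pairs at -0.206 to 0.116. Not every library there correlated best with its own number. In the Yap1/Taz libraries same-numbered pairs correlated at -0.175, -0.123 and -0.156. In the Lats2 libraries they correlated at 0.0651 and other pairs at -0.0651. With 2 libraries per group every pair has the same size of correlation, so these values cannot decide it. Calls of low members rest on few reads, 34 to 106 for Abca7.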
